A study of Mus musculus with 8 samples.

Results

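The collagen genes are those whose symbol has the form of Col, a number, the letter a and a number. On these arrays 44 genes of that form had a probeset (a group of array probes summarised into 1 value) assigned to that gene alone, out of 19937 genes measured in the same way. They were taken from 46 probesets, and Col6a5 and Col6a6, which had 2 each, were represented by the one with the higher mean. By class, 11 were fibrillar collagens, 8 were basement membrane collagens (6 chains of type IV, with Col15a1 and Col18a1) and 25 were others. Total RNA came from NMuMG, an epithelial cell line of mouse mammary gland used as a model of the epithelial response to TGFbeta (transforming growth factor beta). All cells were stable transfectants. Major cells carried a vector with sequence of the major satellite, which repeats in tandem around mouse centromeres, and Control cells carried a control vector. There were 4 groups of 2 arrays each. They were Major cells given TGFbeta for 8 h, Major cells at 0 h, Control cells given TGFbeta for 8 h, and Control cells at 0 h. No group was left untreated for 8 h, so TGFbeta and the 8 h in culture cannot be told apart. The labels do not say whether a transfectant was 1 clone or a pool, or whether the arrays of a group came from separate cultures, and the spread behind each p-value may be technical. The titles carried 1 of 2 date codes, and 1 array of each group had each code. The codes are called date code 1 and date code 2 here, and what the dates stand for is not given in the labels.

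Collagens are trimers of alpha chains wound into a triple helix. Fibrillar types such as I, III and V form the cables of connective tissue, type IV forms the sheet-like network of basement membranes under epithelia, and the others bridge, anchor or decorate these structures. TGFbeta acts through receptor kinases that phosphorylate Smad2 and Smad3, which enter the nucleus with Smad4 and bind genes that hold short Smad motifs. Collagen genes are classical TGFbeta targets in fibroblasts, and TGFbeta also drives the epithelial-to-mesenchymal transition of mammary epithelial cells.

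All values were log2 expression values per probeset, as deposited. A level cannot be set against that of another gene because each probeset binds with its own strength. Against the median of all probesets on the same array, 22 collagens lay above on all 8 arrays, 10 lay below on all 8, and 12 lay above on some. The 22 were 7 of the 11 fibrillar genes, 4 of the 8 basement membrane genes and 11 of the 25 others. The cells had the epithelial markers Krt8, Krt18, Krt19 and Cdh1 at 12.65 to 14.42 on all arrays, whereas Epcam (6.53 to 7.16) and Cldn7 (6.70 to 7.03) lay below the array medians, which ran from 7.72 to 7.92. Of 10 fibroblast markers, Dcn, Dpt, Fap, Lum and Postn lay between 4.41 and 6.10, Pdgfra, Pdgfrb, Thy1 and Pdpn between 7.01 and 8.44, and Twist2 between 9.42 and 10.76. Genes of the TGFbeta response were higher in the treated arrays of both vectors. Smad7, the inhibitory Smad that TGFbeta induces, rose by 1.18 ± 0.11 log2 units (SE) in Major cells (limma adjusted p = 0.000165). It rose by 1.22 ± 0.11 in Control cells (limma adjusted p = 0.000123). Snai1, a repressor of E-cadherin, rose by 1.61 ± 0.17 and 1.63 ± 0.17 in Major and Control cells, and Skil, a Smad corepressor, by 1.25 ± 0.09 and 1.36 ± 0.09. With the date code left out of the model, Smad7 still passed in Major and Control cells (limma adjusted p = 0.0243 and 0.0183). Snai1 (limma adjusted p = 0.146 and 0.147) and Skil (limma adjusted p = 0.341 and 0.283) then did not pass. Cdh1 differed by -0.16 in Major cells and -0.07 in Control cells, and Vim by 0.04 and 0.07, and neither passed the test.

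A minority of the collagens rose between 0 h and 8 h with TGFbeta, and none passed as lower in a single vector in this model. In Major cells 9 of 44 rose: Col1a1, Col5a1, Col11a1 and Col27a1 among the fibrillar genes, Col15a1 and Col18a1 of the basement membrane zone, and Col6a3, Col7a1 and Col12a1 among the others. In Control cells 7 of 44 rose, which were those of Major cells other than Col5a1 and Col11a1. The fold changes were modest, from 1.28 to 1.76. The test was limma with the date code in the model, run over all 19937 genes, and a gene passed at a Benjamini-Hochberg adjusted p under 0.05. Of all genes, 15.3% passed in Major cells (6.89% higher, 8.38% lower) and 14.6% passed in Control cells (6.92% higher, 7.63% lower). The collagens that rose were 20.5% in Major cells and 15.9% in Control cells. All of these calls rest on pairing arrays by date code. With no block for the date code 0 of 44 collagens passed in either vector, against 1.09% of all genes in Major cells and 1.07% in Control cells. The differences are the same size in that model, and the adjusted p of the 9 genes in Major cells ran from 0.182 for Col1a1 to 0.961 for Col12a1.

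**Figure D1:**
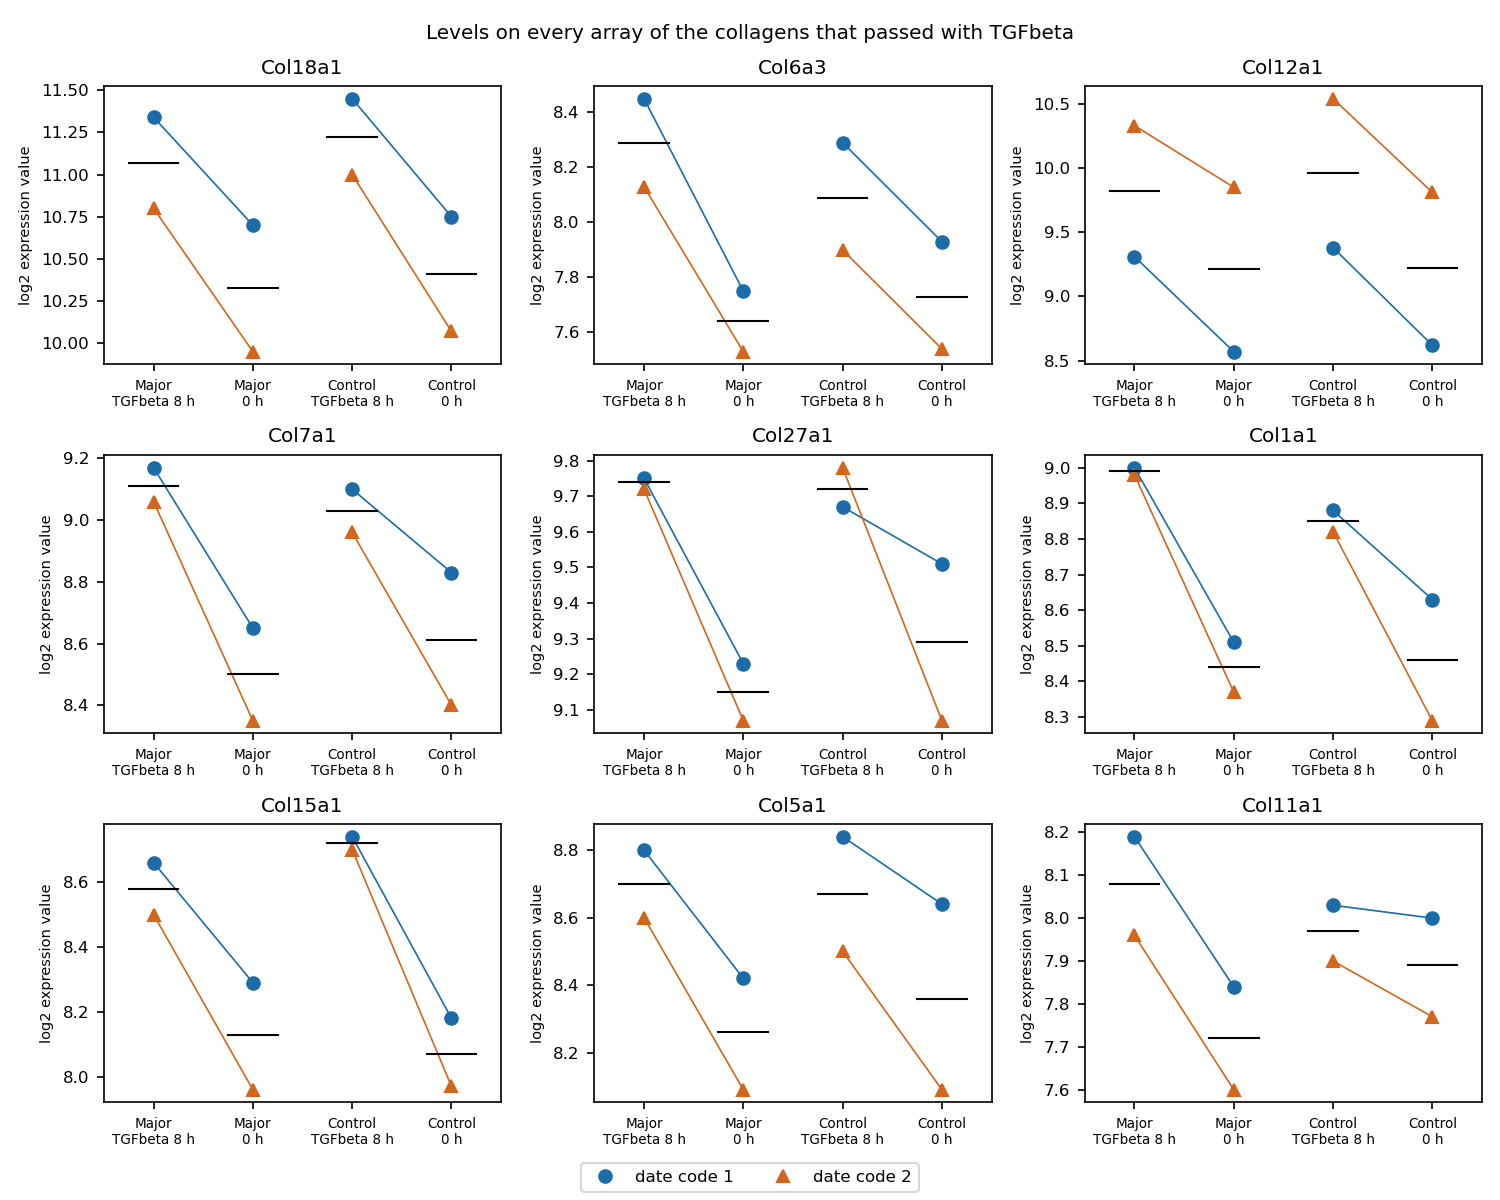
Log2 level on every array of the 9 collagens that passed in at least 1 vector, with 1 panel per gene and the groups along the x axis in the order Major TGFbeta 8 h, Major 0 h, Control TGFbeta 8 h and Control 0 h. Each point is 1 array and its marker gives the date code. Within each date code the TGFbeta array lies above the 0 h array of its vector for each gene, lines join the arrays of a code, and bars give the group means. For Col12a1 the date codes lie farther apart than the treatments.

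Col18a1 encodes the alpha chain of type XVIII collagen, a heparan sulfate proteoglycan of basement membranes whose C-terminal fragment is endostatin. The gene lies at chr10:77052178-77166530 (GRCm38.p6, as are all coordinates given). It read 11.34 and 10.80 on the Major TGFbeta arrays of date codes 1 and 2, against 10.70 and 9.95 in Major cells at 0 h. In Control cells it read 11.45 and 11.00 with TGFbeta, against 10.75 and 10.07 at 0 h. The treated arrays lay above the untreated ones of the same vector without overlap. The difference was 0.74 ± 0.10 log2 units in Major cells (1.68-fold, 95% interval 0.53 to 0.96, limma adjusted p = 0.00106). It was 0.81 ± 0.10 in Control cells (1.76-fold, 0.60 to 1.03, limma adjusted p = 0.000627). Col15a1, at chr4:47207655-47313167, encodes type XV collagen, the close relative of type XVIII that links basement membranes to the collagen fibrils beneath. Its levels were 8.66 and 8.50 in Major cells with TGFbeta, against 8.29 and 7.96 at 0 h, and 8.74 and 8.70 in Control cells with TGFbeta, against 8.18 and 7.97 at 0 h. The groups did not overlap in either vector. Col15a1 rose by 0.45 ± 0.09 in Major cells (limma adjusted p = 0.0112) and by 0.65 ± 0.09 in Control cells (limma adjusted p = 0.00179). The call in Major cells was lost without either date code 2 array of that vector (highest adjusted p 0.152).

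The 6 chains of type IV collagen, the network of the basement membrane itself, gave no such difference. Their estimates ran from -0.05 to 0.18 in Major cells (lowest limma adjusted p 0.235) and from -0.04 to 0.09 in Control cells (lowest limma adjusted p 0.646). The 95% intervals together spanned -0.26 to 0.40 in Major cells and -0.24 to 0.33 in Control cells. A change of the size seen for Col18a1 lay outside these intervals, which are not adjusted for the number of genes. Col4a1, whose protein forms the main type IV trimer with that of Col4a2, read 9.53 and 9.25 in Major cells with TGFbeta, against 9.62 and 9.26 at 0 h. In Control cells it read 9.63 and 9.44 with TGFbeta, against 9.67 and 9.21 at 0 h. Col4a2 read 9.34 and 8.94 in Major cells with TGFbeta, against 9.41 and 8.87 at 0 h, and 9.34 and 8.97 in Control cells with TGFbeta, against 9.47 and 8.89 at 0 h. Treated and untreated arrays of both genes overlapped in each vector. The pair is divergently transcribed, with annotated starts 21 bases apart. The gene bounds differ from those starts and overlap on chr8, where Col4a1 ends at 11312889 and Col4a2 begins at 11312805. Col4a3, Col4a4, Col4a5 and Col4a6, the chains of more restricted basement membranes, lay between 6.91 and 7.92 on all arrays. Col4a5 and Col4a6 lay below the array median on all 8 arrays, and Col4a3 and Col4a4 lay above it on 1 and 4. Whether probesets at such levels would report a change was not tested.

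Among the fibrillar genes, Col1a1, at chr11:94936224-94953042, encodes the alpha chain present as a pair in each type I trimer. It read 9.00 and 8.98 in Major cells with TGFbeta, against 8.51 and 8.37 at 0 h, and 8.88 and 8.82 in Control cells with TGFbeta, against 8.63 and 8.29 at 0 h. Treated and untreated arrays were separate in both vectors. It rose by 0.55 ± 0.10 in Major cells (limma adjusted p = 0.00535) and by 0.39 ± 0.10 in Control cells (limma adjusted p = 0.0294). Col1a2, the partner chain of the same trimer, read 8.46 and 8.28 in Major cells with TGFbeta, against 8.30 and 8.09 at 0 h, and 8.41 and 8.12 in Control cells with TGFbeta, against 8.42 and 8.15 at 0 h. Its groups overlapped in both vectors, and the estimates of 0.18 ± 0.08 in Major cells (limma adjusted p = 0.201) and -0.02 ± 0.08 in Control cells (limma adjusted p = 0.916) did not pass. Col3a1, the type III chain of pliable tissues, gave 0.18 ± 0.09 in Major cells and 0.03 ± 0.09 in Control cells and did not pass either (limma adjusted p = 0.226 and 0.881). Whether Col1a1 differed more than Col1a2 was not tested, since probesets of different genes differ in response.

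Col27a1, at chr4:63214009-63334991, encodes a fibrillar collagen of cartilage with a short interruption in its helix. It read 9.75 and 9.72 in Major cells with TGFbeta, against 9.23 and 9.07 at 0 h, and 9.67 and 9.78 in Control cells with TGFbeta, against 9.51 and 9.07 at 0 h. It rose by 0.58 ± 0.12 in Major cells (limma adjusted p = 0.012) and by 0.43 ± 0.12 in Control cells (limma adjusted p = 0.0452). Within Control cells the difference was 0.16 in date code 1 and 0.70 in date code 2, and the call was lost without either date code 2 Control array or any 1 of the 4 Major arrays (highest adjusted p 0.417). Col5a1, at chr2:27886381-28039510, encodes a type V chain that starts type I fibrils and limits their width. It read 8.80 and 8.60 in Major cells with TGFbeta, against 8.42 and 8.09 at 0 h, and passed there (0.45 ± 0.10, limma adjusted p = 0.0153). In Control cells it read 8.84 and 8.50 with TGFbeta, against 8.64 and 8.09 at 0 h, with overlap, and gave 0.31 ± 0.10 (limma adjusted p = 0.0766). Col11a1, at chr3:114030479-114220756, the related type XI chain, read 8.19 and 7.96 in Major cells with TGFbeta, against 7.84 and 7.60 at 0 h, and rose by 0.36 ± 0.08 (limma adjusted p = 0.0196). In Control cells it read 8.03 and 7.90 with TGFbeta, against 8.00 and 7.77 at 0 h, and gave 0.08 ± 0.08 (limma adjusted p = 0.644). Its call in Major cells was lost without any 1 of the 4 Major arrays. The test of the difference between vectors was not passed by Col5a1 or Col11a1 (limma adjusted p = 0.999 each). The other fibrillar genes, Col2a1, Col5a2, Col5a3, Col11a2 and Col24a1, did not pass in either vector, with estimates of 0.15 to 0.26 in Major cells and -0.02 to 0.20 in Control cells.

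Of the other classes, Col12a1, at chr9:79598987-79721141, encodes type XII collagen, which lies on the surface of type I fibrils. It read 9.31 and 10.33 in Major cells with TGFbeta, against 8.57 and 9.85 at 0 h, and 9.38 and 10.54 in Control cells with TGFbeta, against 8.62 and 9.81 at 0 h. The treated and untreated groups overlap here, and the increase shows only within a date code, at 0.74 and 0.48 in Major cells and 0.76 and 0.72 in Control cells for date codes 1 and 2. Col12a1 rose by 0.61 ± 0.09 in Major cells (limma adjusted p = 0.00228) and by 0.74 ± 0.09 in Control cells (limma adjusted p = 0.000771). Col7a1, at chr9:108953586-108984875, encodes type VII collagen, the anchoring fibril that ties epithelial basement membrane to the matrix below. It read 9.17 and 9.06 in Major cells with TGFbeta, against 8.65 and 8.35 at 0 h, and 9.10 and 8.96 in Control cells with TGFbeta, against 8.83 and 8.40 at 0 h. The groups were separate in both vectors, and it rose by 0.61 ± 0.10 in Major cells (limma adjusted p = 0.00349) and by 0.42 ± 0.10 in Control cells (limma adjusted p = 0.0213). Across the omission of each array in turn, Col7a1, Col12a1, Col18a1 and Col6a3 passed in Major cells and Col12a1, Col15a1 and Col18a1 in Control cells every time. In Major cells Col1a1 was lost without either date code 2 array of that vector (highest adjusted p 0.0597), and Col5a1 and Col27a1 were lost without either of these or the untreated array of date code 1 (highest 0.131 and 0.108). In Control cells Col6a3 was lost without any 1 Control array (highest 0.185) and Col7a1 without either treated Control array or the untreated one of date code 2 (highest 0.231). Col1a1 was lost there without the same 3 arrays or either untreated Major array (highest 0.296).

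Type VI collagen, the beaded filament assembled from Col6a1, Col6a2 and one more chain such as Col6a3, gave estimates of both signs. Col6a3, at chr1:90766860-90844001, read 8.45 and 8.13 in Major cells with TGFbeta, against 7.75 and 7.53 at 0 h, and rose by 0.65 ± 0.09 (limma adjusted p = 0.00119). In Control cells it read 8.29 and 7.90 with TGFbeta, against 7.93 and 7.54 at 0 h, and rose by 0.36 ± 0.09 (limma adjusted p = 0.0225), with the treated and untreated arrays overlapping across date codes. Col6a1, at chr10:76708792-76726044, read 9.56 and 9.57 in Major cells with TGFbeta, against 9.84 and 9.90 at 0 h, and 9.69 and 9.50 in Control cells with TGFbeta, against 10.08 and 9.77 at 0 h. It lay lower in the treated array of each date code and vector. Its estimates of -0.30 ± 0.11 in Major cells and -0.33 ± 0.11 in Control cells did not pass in either vector alone (limma adjusted p = 0.0911 and 0.0749). It did pass in Control cells, as lower, without the genes whose mean lay below the median gene mean (limma adjusted p = 0.047). It also passed there, as lower, when only the 4 Control arrays were fitted (limma adjusted p = 0.0471). Col6a2 gave -0.16 ± 0.09 in Major cells and -0.13 ± 0.09 in Control cells, which did not pass (limma adjusted p = 0.263 and 0.407). In the mean response of both vectors, a contrast added after the data had been seen, 24.3% of all genes passed, and 12 collagens did. These were the 9 above, Col5a3 (0.23 ± 0.07, limma adjusted p = 0.0326) and Col17a1, a hemidesmosomal transmembrane collagen (0.23 ± 0.07, limma adjusted p = 0.0448), which rose, and Col6a1, which fell by 0.32 ± 0.08 on the log2 scale (limma adjusted p = 0.0131). Without the date code block only Col15a1 among the collagens passed this contrast (limma adjusted p = 0.0417), beside 4.83% of all genes.

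**Figure D2:**
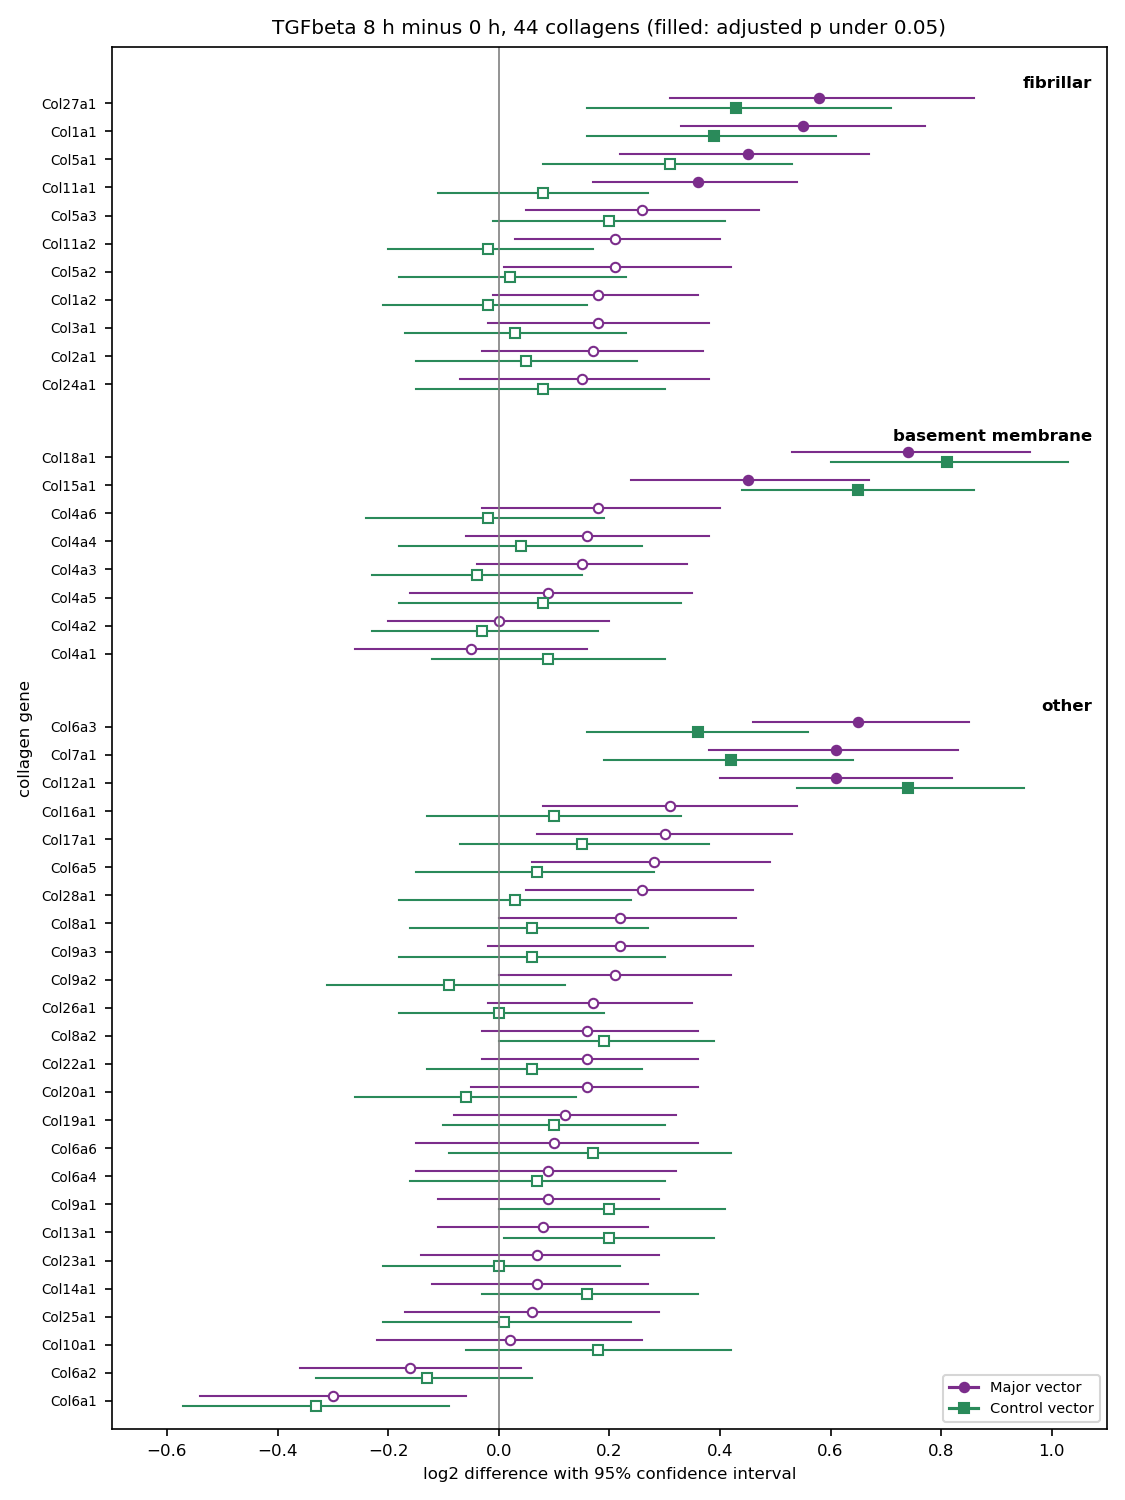
Difference between TGFbeta 8 h and 0 h in log2 units for all 44 collagens, by class, with Major and Control cells as separate points and bars for the 95% confidence interval. Filled points passed at an adjusted p under 0.05. The called genes lie between 0.36 and 0.81, the type IV chains lie around 0, and Col6a1 and Col6a2 lie below 0 in both vectors.

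Most collagens that did not pass also had a small positive estimate in Major cells. There 40 of 44 estimates were above 0 with a median of 0.17, beside 57.4% of all genes and a median of 0.03. In Control cells 35 of 44 were above 0 with a median of 0.07, beside 52.3% of all genes and a median of 0.01. The shift was also seen in the 10 collagens below the array median on all 8 arrays. Of these, 10 were above 0 in Major cells, with a median of 0.14, and 9 in Control cells, with a median of 0.07. Whether the shift at such low levels is one of expression was not tested. The Major estimates were alike between date codes (medians 0.19 and 0.17, with 39 of 44 positive in each), whereas those of Control cells were not, with a median of 0.03 and 23 of 44 positive in date code 1 and a median of 0.16 and 36 of 44 positive in date code 2. The Control value moved with each of its 4 arrays. Without the date code 1 array of untreated Control cells the median was 0.14 with 38 of 44 positive, and without that of date code 2 it was 0.0 with 23 of 44 positive. Without the treated Control array of date code 1 it was 0.13 with 33 of 44 positive, and without that of date code 2 it was 0.04 with 28 of 44 positive.

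Sequence upstream of the annotated starts is shown for the genes that rose in both vectors and have an entry in the RefSeq promoter table (GRCm38.p6). Each is the 250 bases before a start, read 5′ to 3′ on the strand of the gene, and Col18a1 has 2 annotated starts. The starts in that table differ from the bounds given above for some genes. The windows of Col15a1 and Col27a1 and 1 of the 2 of Col18a1 lie within those gene bounds. That of Col6a3 overlaps them in part, so these windows are not wholly outside the gene. Capitals mark the minimal Smad motif, CAGAC on either strand (GTCTG as read here).
Col15a1, chr4:47207762-47208011, plus strand: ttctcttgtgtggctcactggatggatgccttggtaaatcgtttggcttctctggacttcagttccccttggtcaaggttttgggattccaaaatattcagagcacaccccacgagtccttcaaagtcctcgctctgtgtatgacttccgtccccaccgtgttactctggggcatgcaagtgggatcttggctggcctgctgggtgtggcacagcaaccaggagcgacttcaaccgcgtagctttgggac
Col18a1, chr10:77113706-77113955, minus strand: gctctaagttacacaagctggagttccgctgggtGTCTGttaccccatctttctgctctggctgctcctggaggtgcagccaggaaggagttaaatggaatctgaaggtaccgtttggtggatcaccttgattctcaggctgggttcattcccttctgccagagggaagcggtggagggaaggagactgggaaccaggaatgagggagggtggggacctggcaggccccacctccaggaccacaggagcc
Col18a1, chr10:77166531-77166780, minus strand: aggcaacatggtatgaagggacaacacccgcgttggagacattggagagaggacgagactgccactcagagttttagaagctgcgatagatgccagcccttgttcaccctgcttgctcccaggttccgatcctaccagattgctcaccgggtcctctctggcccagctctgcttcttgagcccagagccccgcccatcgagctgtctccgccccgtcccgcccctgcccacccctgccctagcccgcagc
Col27a1, chr4:63215162-63215411, plus strand: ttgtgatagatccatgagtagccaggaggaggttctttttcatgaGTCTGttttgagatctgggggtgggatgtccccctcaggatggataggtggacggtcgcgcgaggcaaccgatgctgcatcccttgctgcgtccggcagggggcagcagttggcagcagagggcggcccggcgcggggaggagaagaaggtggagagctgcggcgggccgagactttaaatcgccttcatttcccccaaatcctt
Col6a3, chr1:90843972-90844221, minus strand: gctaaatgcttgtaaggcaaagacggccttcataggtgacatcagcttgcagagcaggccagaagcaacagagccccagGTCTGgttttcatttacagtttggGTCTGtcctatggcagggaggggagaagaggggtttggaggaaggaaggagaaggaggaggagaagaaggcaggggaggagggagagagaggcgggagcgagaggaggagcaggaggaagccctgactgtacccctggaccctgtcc
Col7a1, chr9:108953336-108953585, plus strand: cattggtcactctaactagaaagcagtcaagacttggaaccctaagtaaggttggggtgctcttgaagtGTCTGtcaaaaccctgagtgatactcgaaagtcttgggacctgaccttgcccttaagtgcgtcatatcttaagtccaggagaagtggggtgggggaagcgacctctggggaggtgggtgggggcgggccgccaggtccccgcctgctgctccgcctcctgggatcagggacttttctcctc
The windows of Col18a1 (1 of 2), Col27a1, Col6a3 and Col7a1 hold the motif and that of Col15a1 does not. An entry existed for 35 of the 44 collagens, in 38 windows, and 17 of these (44.7%) held CAGAC, against 42.2% of all 32851 windows of the same length. Of the 8 windows of the genes that passed in at least 1 vector, 6 held it. The palindromic Smad motif GTCTAGAC, searched as spelled, was in 0 of the 38 collagen windows and 0.167% of all windows. The AP-1 motif TGANTCA, searched on both strands, was in 1 of the 38 and 6.75% of all. A match is a description of the letters and not of binding.

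The machinery that makes, secretes and assembles collagen was measured alongside, as 75 genes in 8 lists. Of all genes, 6.89% passed as higher and 8.38% as lower in Major cells, and 6.92% and 7.63% in Control cells. These shares stand beside the count of each list below. Of the 75 genes, 26 rose, 9 fell and 40 did not pass in Major cells. In Control cells 24 rose, 7 fell and 44 did not pass, with 23 higher in both vectors and 7 lower in both. As for the collagens, most of these calls need the date code in the model: among the genes named next, Creb3l1, Creb3l2 and Pxdn passed in both vectors without it and Fn1 in Control cells. Procollagen secretion had 4 of 7 genes higher in each vector and 1 lower in Major cells (Ctage5, -0.30 ± 0.09, limma adjusted p = 0.0477, named after its value was seen). Creb3l2, a membrane-bound transcription factor that induces the secretory genes for large cargo, read 11.59 and 11.57 in Major cells with TGFbeta, against 10.21 and 10.25 at 0 h, and 11.73 and 11.77 in Control cells with TGFbeta, against 10.49 and 10.28 at 0 h. The groups were well apart, and it rose by 1.36 ± 0.09 in Major cells (limma adjusted p = 4.34e-05) and 1.37 ± 0.09 in Control cells (limma adjusted p = 4.05e-05). Its relative Creb3l1 rose by 1.11 ± 0.13 and 1.04 ± 0.13 in Major and Control cells. The COPII coat genes that package procollagen also rose, Sec24d by 1.20 ± 0.11 and 1.07 ± 0.11 and Sec23a by 0.44 ± 0.08 and 0.64 ± 0.08.

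Of 17 genes for hydroxylation, glycosylation and folding of the chains, 8 rose and 1 fell in Major cells and 6 rose and 1 fell in Control cells. Plod2, the lysyl hydroxylase of the telopeptides, read 9.84 and 10.43 in Major cells with TGFbeta, against 8.80 and 9.22 at 0 h, and 10.02 and 10.44 in Control cells with TGFbeta, against 8.88 and 9.04 at 0 h. It rose by 1.12 ± 0.11 in Major cells and 1.27 ± 0.11 in Control cells (limma adjusted p = 0.000237 and 0.000118). The prolyl 4-hydroxylase subunit P4ha3 rose by 0.97 ± 0.14 and 0.94 ± 0.14 and the lysyl hydroxylase Plod1 by 0.48 ± 0.09 and 0.59 ± 0.09. P3h2, a prolyl 3-hydroxylase that acts on type IV collagen, was the exception and fell by 0.97 ± 0.13 in Major cells and 0.90 ± 0.13 in Control cells on the log2 scale. Among 7 genes of propeptide removal, Bmp1, the procollagen C-proteinase, rose by 0.95 ± 0.11 and 1.01 ± 0.11 in Major and Control cells. Its enhancers went opposite ways, with Pcolce2 higher by 1.64 ± 0.22 and 1.59 ± 0.22 and Pcolce lower, at -0.74 ± 0.09 and -0.64 ± 0.09.

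Crosslinking enzymes included Pxdn, the peroxidasin that joins type IV collagen through sulfilimine bonds. It read 12.11 and 12.08 in Major cells with TGFbeta, against 10.91 and 10.60 at 0 h, and 12.22 and 12.26 in Control cells with TGFbeta, against 10.98 and 10.71 at 0 h. Pxdn thus rose by 1.34 ± 0.11 and 1.40 ± 0.11 in Major and Control cells (limma adjusted p = 8.96e-05 and 6.82e-05), while the type IV chains did not pass. Lox, which starts the crosslinks of fibrillar collagen, rose by 0.75 ± 0.12 and 0.55 ± 0.12, and the transglutaminase Tgm2 passed in Control cells (0.33 ± 0.09, limma adjusted p = 0.0388, with 0.20 ± 0.09 and limma adjusted p = 0.179 in Major cells). The basement membrane partners of type IV collagen were listed as laminins, nidogens, Hspg2 and Agrn. Of these, 3 of 13 measured rose and 4 fell in Major cells, and 2 rose and 3 fell in Control cells. Lamb3 rose by 1.23 ± 0.11 in each vector and Lamb1 by 0.92 ± 0.10 and 0.98 ± 0.10 in Major and Control cells. Nid2 was lower at -0.74 ± 0.10 and -0.71 ± 0.10, and Lamb2 at -0.68 ± 0.12 and -0.47 ± 0.12.

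Collagen receptors rose for 4 of 8 genes in each vector. Itga2, whose integrin binds collagen directly, rose by 0.92 ± 0.15 in Major cells and 0.89 ± 0.15 in Control cells, and its partner Itgb1 by 0.44 ± 0.10 and 0.39 ± 0.10. The collagen-binding kinases Ddr1 (0.35 ± 0.08 and 0.42 ± 0.08) and Ddr2 (0.42 ± 0.11 and 0.46 ± 0.11) rose in Major and Control cells. Of 7 collagenases and gelatinases 2 rose and 1 fell in each vector. Mmp13, the main interstitial collagenase of mice, read 10.65 and 8.86 in Major cells with TGFbeta, against 12.12 and 10.13 at 0 h, and 11.49 and 8.92 in Control cells with TGFbeta, against 12.64 and 10.50 at 0 h. It fell by 1.37 ± 0.16 in Major cells and 1.36 ± 0.16 in Control cells on the log2 scale (limma adjusted p = 0.000545 and 0.000532), and its date codes also lay far apart in every group. Mmp14 rose by 0.62 ± 0.09 and 0.74 ± 0.09 and Mmp9 by 0.44 ± 0.12 and 0.57 ± 0.12. Of 10 fibril regulators, Fn1, the fibronectin scaffold for fibrils, rose by 0.73 ± 0.10 and 0.88 ± 0.10, and Tnxb, a tenascin of the fibril surface, was lower at -0.77 ± 0.12 and -0.74 ± 0.12.

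**Figure D3:**
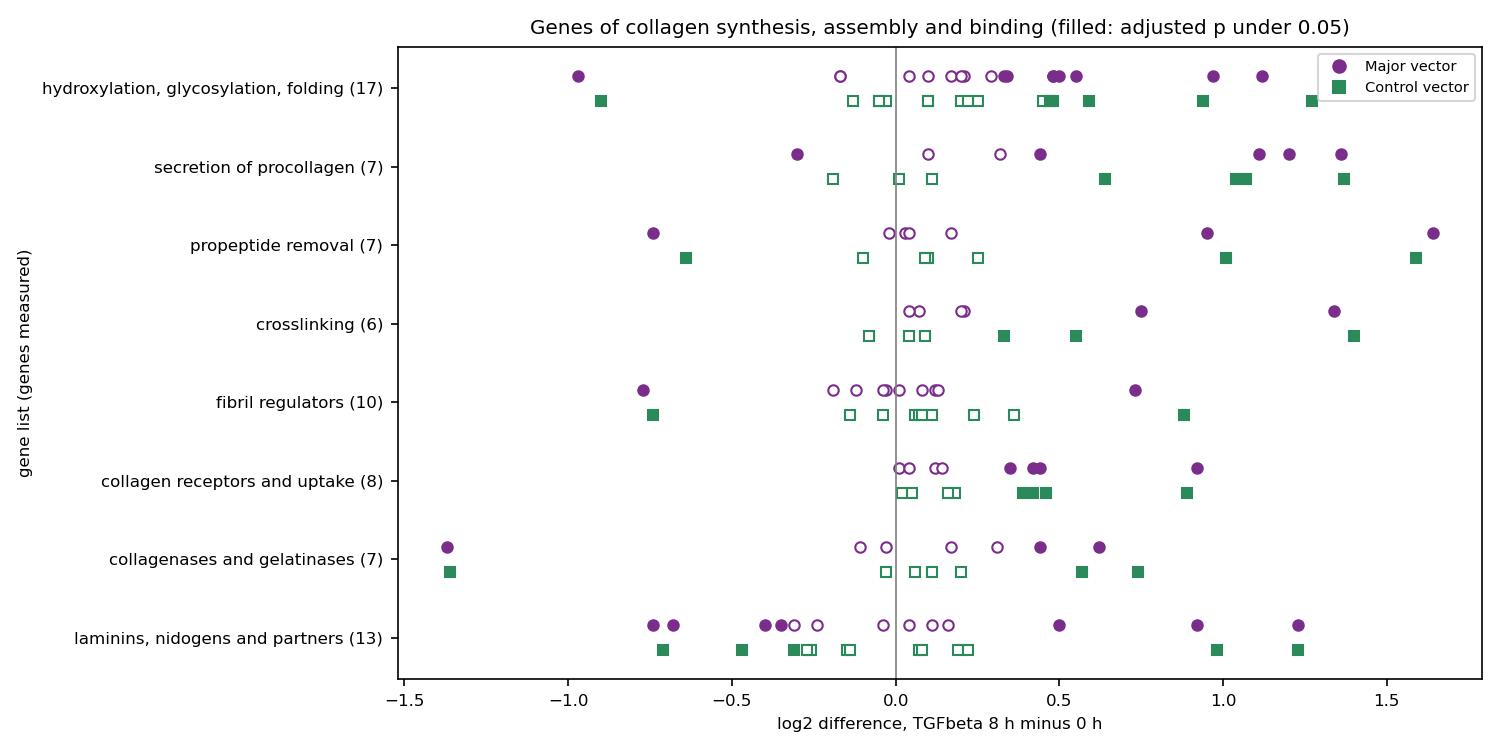
TGFbeta 8 h minus 0 h in log2 units for the measured genes of the lists on collagen processing, secretion, assembly, uptake and turnover. Each row is 1 list with its number of measured genes, circles are Major cells and squares are Control cells, and filled markers passed at an adjusted p under 0.05. Pcolce2, of the propeptide removal list, lies at 1.64 in Major cells and 1.59 in Control cells, and Mmp13 lies at -1.37 in Major cells and -1.36 in Control cells.

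Markers of other cell types were read beside these changes. Of 10 fibroblast markers, Pdgfra rose by 0.70 ± 0.10 in Major cells and 0.63 ± 0.10 in Control cells, Twist2 was lower at -0.98 ± 0.09 and -0.96 ± 0.09, and Pdgfrb passed in Major cells (0.33 ± 0.09). The log2 of their summed linear level was 10.97 and 10.88 in Major cells with TGFbeta, against 11.47 and 11.15 at 0 h, and 10.93 and 10.80 in Control cells with TGFbeta, against 11.30 and 11.13 at 0 h. The sum was lower on each treated array than on its untreated partner, and Twist2, which fell, has the strongest signal in it. Because each probeset binds with its own strength, the sum is weighted by probeset and does not measure fibroblast content. The median of the 10 markers was higher on each treated array, at 6.78 and 6.72 in Major cells with TGFbeta, against 6.56 and 6.48 at 0 h, and 6.70 and 6.60 in Control cells with TGFbeta, against 6.58 and 6.38 at 0 h. Their part in the collagen changes was not tested. Of 5 endothelial markers (5.96 to 7.82), Cdh5 rose in Control cells by 0.32 ± 0.09 (limma adjusted p = 0.0434, and 0.813 without the date code block). Of 4 immune markers (5.69 to 9.10), 0 passed. Of 8 epithelial markers, Cldn4 rose by 2.25 ± 0.12 and 2.26 ± 0.12 and Krt19 fell by 0.72 ± 0.09 and 0.76 ± 0.09 in Major and Control cells. Without the date code block, Twist2 and Cldn4 still passed in both vectors, and Pdgfra, Pdgfrb, Cdh5 and Krt19 passed in neither. In bulk RNA, a change in the number of cells of a type and a change in RNA per cell cannot be told apart.

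No collagen passed the test between the vectors. In Major against Control cells 0 of 44 passed with TGFbeta (0.0301% of all genes passed), 0 of 44 passed at 0 h (0.0301%) and 0 of 44 passed in the average of both times (0.0853%). The 95% intervals of the averaged difference lay within -0.27 and 0.27 for all 44 genes. They are taken gene by gene without adjustment, and changes within them can go undetected with 2 arrays a group. With an unadjusted p under 0.05 there was 1 collagen with TGFbeta, 0 at 0 h and 0 in the average, beside 1298, 654 and 1071 of all 19937 genes. With TGFbeta the smallest p belonged to Col6a3, at 0.20 ± 0.09, then Col8a1 at 0.18 ± 0.09 and Col28a1 at 0.17 ± 0.09 (limma adjusted p = 0.752, 0.76 and 0.76). At 0 h they were Col11a1, at -0.17 ± 0.08, Col11a2, at -0.14 ± 0.08, and Col9a2, at -0.15 ± 0.09 (limma adjusted p = 1.0 each). In the average they were Col8a2, at -0.13 ± 0.06, Col18a1, at -0.12 ± 0.07, and Col8a1, at 0.10 ± 0.07 (limma adjusted p = 0.874, 0.874 and 0.876).

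**Figure D4:**
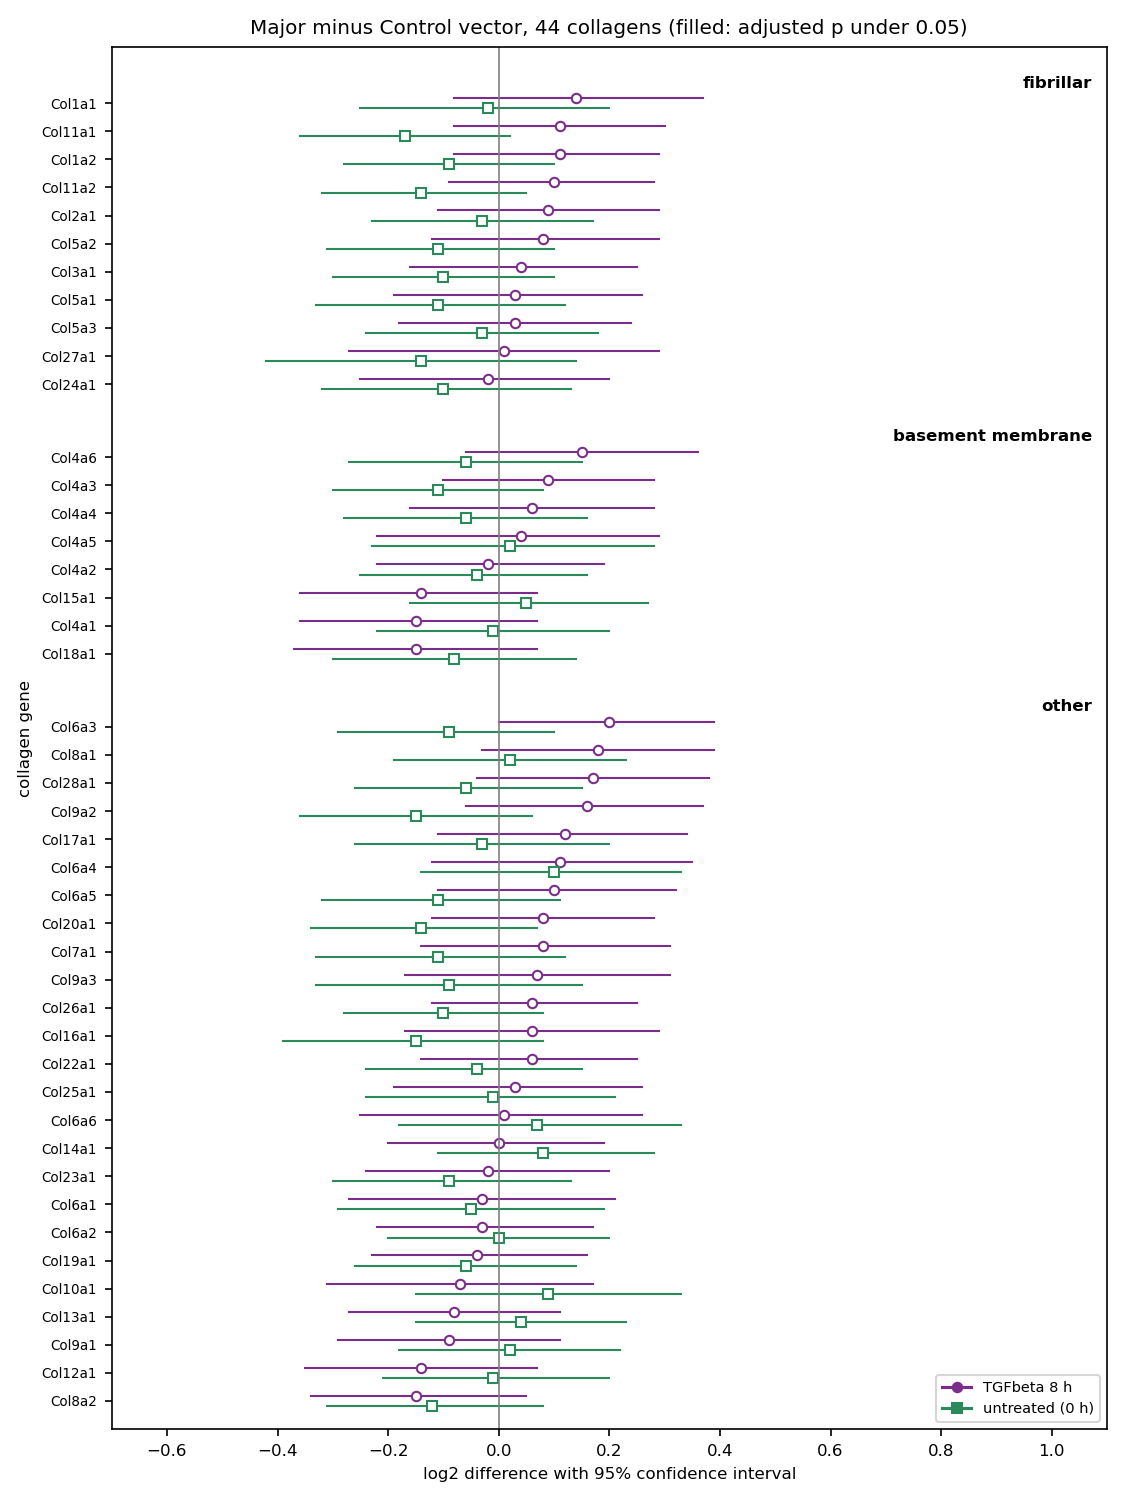
Major minus Control in log2 units for all 44 collagens, by class, with TGFbeta and at 0 h as separate points and bars for the 95% confidence interval; no point is filled because none passed. The points lie between -0.17 and 0.20. At 0 h all 11 fibrillar genes lie below 0, and with TGFbeta 10 of the 11 lie above 0. In date code 2 alone the 0 h fibrillar differences had both signs, such as 0.10 for Col5a3 and -0.18 for Col11a1.

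At 0 h the collagens lay slightly lower in Major cells, with 10 of 44 estimates above 0 and a median of -0.06, beside 49.4% of all genes above 0. This held in date code 1 (median -0.12, 3 of 44 above 0) and not in date code 2 (median 0.0, 22 of 44 above 0). Without the date code 1 array of untreated Control cells it was 0.01, with 25 of 44 above 0. With TGFbeta 29 of 44 lay above 0 with a median of 0.05, beside 52.9% of all genes and a median of 0.01. Without the date code 2 array of treated Major cells this median was 0.01 with 25 of 44 above 0. Without the treated Control array of date code 1 it was 0.03 with 25 of 44 above 0, and without that of date code 2 it was 0.08 with 31 of 44 above 0. Without the untreated Control array of date code 2 the 0 h median was -0.13 with 5 of 44 above 0, without the untreated Major array of date code 1 it was -0.04 with 15 of 44, and without that of date code 2 it was -0.09 with 6 of 44. The response to TGFbeta was compared between the vectors directly, and 0 of 44 collagens passed (0.0% of all genes passed, with 658 genes and 3 collagens at an unadjusted p under 0.05). These 3 were Col6a3, at 0.29 ± 0.12, Col11a1, at 0.28 ± 0.12, and Col9a2, at 0.31 ± 0.13 (limma adjusted p = 0.999 each). The median of that difference over the collagens was 0.12, 0.03 without the date code 1 array of untreated Control cells and 0.07 without the date code 2 array of treated Major cells. Of the 75 processing genes, 0 passed in any vector comparison. Without the date code block 0 of 44 collagens passed in these comparisons too (0.00502% of all genes passed with TGFbeta, 0.00502% at 0 h, 0.01% in the average and 0.0% for the response).

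The levels of most collagens also differed between the date codes. Date code 2 minus date code 1 had a median of -0.24 over the collagens, against -0.08 over all genes, and 37 of 44 (84.1%) were lower in date code 2 in all 4 groups, against 39.8% of all genes. The array medians, taken over all 34760 probesets and not only the named genes, differed the other way. They were 7.88 to 7.92 in date code 2 and 7.72 to 7.76 in date code 1. Whether a collagen lay above the array median can thus depend on the date code. Col24a1 read 7.85 to 8.10 in date code 1 and 7.49 to 7.74 in date code 2. The lowest difference between the codes was that of Col18a1, -0.60 on average over the groups. Col12a1 was the single collagen higher in date code 2 in all 4 groups, by 1.16 on average, at 1.01 in Major cells with TGFbeta, 1.28 in Major cells at 0 h, 1.15 in Control cells with TGFbeta and 1.19 in Control cells at 0 h. These differences have no replicate within a group and were given no test.

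**Figure D5:**
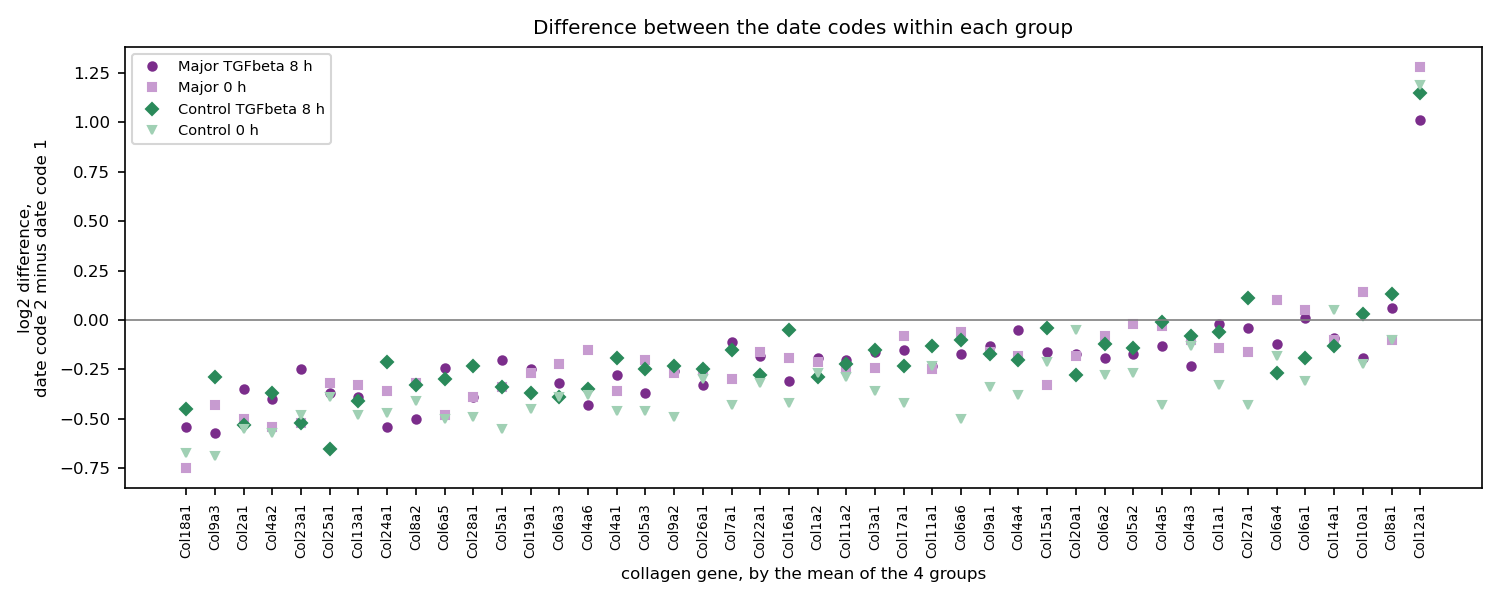
Date code 2 minus date code 1 in log2 units for each collagen within each of the 4 groups, ordered by the mean of the groups. Most points lie below 0 and Col12a1 stands alone at 1.01 to 1.28.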

How the data were processed

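Total RNA of 8 NMuMG samples was measured on Affymetrix arrays. The authors deposited log2 expression values per probeset; RMA and limma are named in the submitters' processing notes without versions, and the build used for probe annotation is not given in the sources used here. Of 34760 probesets, 21640 had 1 gene symbol in the platform table, 1321 had several and 11799 are not in that table, leaving 19937 genes after the probeset with the highest mean was kept for 954 genes. Col21a1 was not analysed here. Values ran from 2.98 to 14.75, and the number of arrays limits the precision.

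Groups came from the titles. limma 3.58.1 in R 4.3.3 was fitted to all 8 arrays with 1 mean per group and the date code as a block, and p-values were Benjamini-Hochberg adjusted over all genes. The titles share codes across groups, and deviations from group means correlated at 0.758 to 0.874 between arrays of a code. The fit was tested on simulated data.

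The text names each collagen that passed, the fibrillar and basement membrane genes, the 3 smallest p where few passed, up to 4 passing genes of each processing list with the smallest p, and 6 response genes. The members and lists were chosen with earlier results of these data known. Coordinates and promoter sequences are from RefSeq (GRCm38.p6).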

Additional observations from a re-analysis of the deposited data

How the results depend on the processing

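The calls under TGFbeta depend on the pairing by date code. With no replicate block the collagens called were 0 in Major cells and 0 in Control cells, and over all genes 218 passed in place of 3044 in Major cells and 214 in place of 2901 in Control cells. Over all genes the vector comparisons gave 1 in place of 6 with TGFbeta, 1 in place of 6 at 0 h and 2 in place of 17 in the average. Leaving out 1 array at a time left 4 to 9 collagens called in Major cells and 3 to 6 in Control cells. The lowest counts came without either date code 2 array of Major cells (4 each), without either date code 2 array of Control cells (3 each) and without the date code 1 array of treated Control cells (4). Where an array was left out its lone partner was assumed to vary like the other groups. The mean response of both vectors, chosen after seeing the data, called 12. Averaging the probesets of a gene, centring arrays on their medians, and trended robust variances each left 9 and 7 called. Another fit left out genes whose mean level lay below the median of all gene means. There 8 collagens rose in Major cells, and 7 rose and 1, Col6a1, fell in Control cells. Col6a3 and Col11a1 were then not tested, although each lay above the array median on 5 of the 8 arrays. Col16a1 was added in Major cells (limma adjusted p = 0.0491) and Col5a1 in Control cells (limma adjusted p = 0.0461). With only the 4 arrays of 1 vector, 8 rose in Major cells, where Col11a1 was lost (limma adjusted p = 0.0706), and 7 rose and 1, Col6a1, fell in Control cells. No collagen that had passed changed sign under these alternatives. The collagen median of Major minus Control at 0 h did, from -0.06 to 0.01 without the date code 1 array of untreated Control cells. With 2 arrays a group, the 95% interval half-widths of the collagens had a median of 0.21 log2 units in each vector under TGFbeta. These intervals are not adjusted for the number of genes, and some larger estimates did not pass. In Control cells Col5a1 gave 0.31 ± 0.10 and Col6a1 -0.33 ± 0.11 (limma adjusted p = 0.0766 and 0.0749). Changes of that size can therefore go undetected.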
